A study of Macaca mulatta with 29 samples.

Results

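The genes described here encode the NODAL and LEFTY signalling pathway. They are the ligands NODAL and GDF3, the secreted inhibitors LEFTY1 and LEFTY2, the co-receptor TDGF1, the receptors ACVR1B and ACVR2B, and the intracellular proteins SMAD2, FOXH1 and SMAD7. These 10 symbols were looked up in the gene symbol column of a table of 16048 genes, and 9 were found and passed the filter on low values. ACVR2B was not analysed here. The genes were followed through 29 RNA-seq libraries of rhesus macaque embryonic stem cells of the line ORMES-6, kept for 4 weeks in medium with 1 of 5 endocrine-disrupting compounds or with the methanol vehicle alone.

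NODAL is a secreted ligand of the TGF-beta family. It binds type I and type II activin receptors together with the membrane-anchored co-receptor TDGF1 (also called CRIPTO), and the activated receptors phosphorylate SMAD2 and SMAD3, which enter the nucleus and act with DNA-binding partners such as FOXH1. NODAL and both LEFTY genes are themselves known targets of this signal, so the pathway feeds its own ligand forward and induces its own diffusible inhibitors. In primate pluripotent cells NODAL and activin signalling is known for holding cells in the undifferentiated state, and in the embryo stronger NODAL signalling directs mesoderm and endoderm formation and left-right patterning.

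All groups shared the ORMES-6 line, feeder layers of mitotically inactivated mouse embryonic fibroblasts and an atmosphere with 5% oxygen. The labels give 3 passages for every library. The compounds were tributyltin chloride (called tributyltin below), an organotin, at 25 nM; atrazine, a herbicide, at 30 uM; perfluorooctanoic acid (PFOA) at 100 nM; bis(2-ethylhexyl) phthalate (DEHP), a plasticizer, at 5 uM; and bisphenol A, a plastics monomer, at 10 nM. There were 5 libraries for vehicle and for each compound except DEHP, which had 4. Each treatment occupied 1 plate of 6 wells, so differences between compounds and between plates cannot be told apart below. The labels do not tie libraries to separate cultures beyond that plate, so p-values measure only the spread between these libraries, which may be technical.

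The levels are FPKM, read fragments scaled by transcript length and library size, a unit meant for comparing levels between genes. How far it allows that in these libraries was not tested. Read totals are unknown, but relative depth, taken from the steps between the values of low genes, lay between 14.2 and 27.2% of the deepest library in the bisphenol A group and between 41.2 and 100% in the other groups. The labelled cell type was checked against its markers. Of 10 pluripotent stem cell markers 8 were in the table, with summed levels of 1883 to 2269 FPKM, and POU5F1 had 523 ± 103 FPKM with vehicle and 510.5 ± 88.8 with tributyltin (SD, n = 5 each). The sum of 10 fibroblast markers was 90.0 to 129 FPKM with vehicle and 101 to 135 with tributyltin, COL1A1 had a mean of 50.0 FPKM over all libraries, and DCN was listed at 0 in all 29. The sum of 4 neural markers was 168 to 219 FPKM with vehicle and 154 to 177 with tributyltin. Over all libraries NES had a mean of 111 FPKM, OTX2 54.8, MAP2 9.81 and PAX6 0.553. The sum of 5 trophoblast markers was 6.80 to 10.7 FPKM with vehicle and 5.27 to 8.21 with tributyltin. In bulk RNA, fewer cells of a type and less RNA per cell cannot be told apart.

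Under vehicle the pathway genes differed widely in level. TDGF1 was the most abundant, at 562 ± 67.2 FPKM (SD, n = 5), and over all libraries its mean was above that of 99.1% of the genes in the table. LEFTY2 followed at 48.9 ± 5.85 FPKM. SMAD7 (27.6 ± 4.09), SMAD2 (26.9 ± 3.80) and NODAL (26.1 ± 2.36) came next, and their ranges over libraries overlapped. ACVR1B (21.9 ± 2.77) and FOXH1 (19.5 ± 5.51) overlapped with these and with each other. LEFTY1, at 12.6 ± 2.75 FPKM, overlapped FOXH1 but lay below its paralog LEFTY2 in every vehicle library. GDF3 stood apart at 1.76 ± 0.608 FPKM, close to the filter of a mean of 1 FPKM.

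With tributyltin, NODAL and LEFTY2 rose, and they were the only pathway genes here that passed the test in any comparison with vehicle. Their mean levels were 1.69-fold (NODAL) and 1.83-fold (LEFTY2) those of the vehicle libraries. LEFTY1 had a 2-fold higher mean and no overlap between the groups, but it missed the threshold. The share of all genes without overlap between these groups is not given here, so a lack of overlap is a description only. The co-receptor, the receptor and the intracellular proteins did not pass the test in either direction.

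NODAL (Entrez identifier 4838) is the ligand of the pathway. With vehicle it was measured at 24.6, 26.9, 22.9, 28.9 and 27.1 FPKM in replicates 1 to 5, a mean of 26.1 ± 2.36 (SD). With tributyltin it was measured at 45.1, 48.7, 45.7, 49.4 and 31.5 FPKM, a mean of 44.1 ± 7.28. All 5 tributyltin libraries lay above all 5 vehicle libraries, and the fifth lay closest to them. The difference was 0.72 on the log2(FPKM + 1) scale (SE 0.107, 95% confidence interval 0.50 to 0.94, limma adjusted p = 0.000141), and this p was the 19th smallest among the 11080 genes tested.

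LEFTY2 (7044), a secreted inhibitor that blocks NODAL from its receptors, was measured in vehicle at 43.2, 57.8, 49.6, 49.8 and 43.9 FPKM. With tributyltin its levels were 93.3, 91.7, 87.2, 96.9 and 78.9 FPKM, a mean of 89.6 ± 6.94 (SD, n = 5). The lowest tributyltin library was above the highest vehicle library. The log2 difference was 0.87 (SE 0.136, 95% confidence interval 0.59 to 1.14, limma adjusted p = 0.000277). Without the libraries numbered 1 and 5 in every group the difference was 0.80 and its adjusted p was 0.0522.

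LEFTY1 (10637), the paralog with the same inhibitory role, was measured in vehicle at 8.21, 15.4, 13.4, 13.9 and 11.8 FPKM. With tributyltin its levels were 26.5, 25.5, 22.9, 32.2 and 18.6 FPKM, a mean of 25.2 ± 5.00 (SD, n = 5). The groups did not overlap, and the spread within each was wider relative to the mean than for LEFTY2. The log2 difference was 0.95 (SE 0.253, 95% confidence interval 0.44 to 1.47), with a limma adjusted p = 0.0549. Blocking by replicate number gave an adjusted p = 0.0118 in a fit of all groups and 0.00177 in a fit of these 2 groups only. The LEFTY genes are near-identical copies, and TDGF1 also has near copies, so reads may have been split between copies and their separate levels are uncertain. LEFTY1 is also the member found in neither of the rhesus gene name tables used here, so its row, its ratios and its tests rest on the deposited human symbol alone. LEFTY2 and TDGF1 were found among the Ensembl names but not in the RefSeq table.

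**Figure D1:**
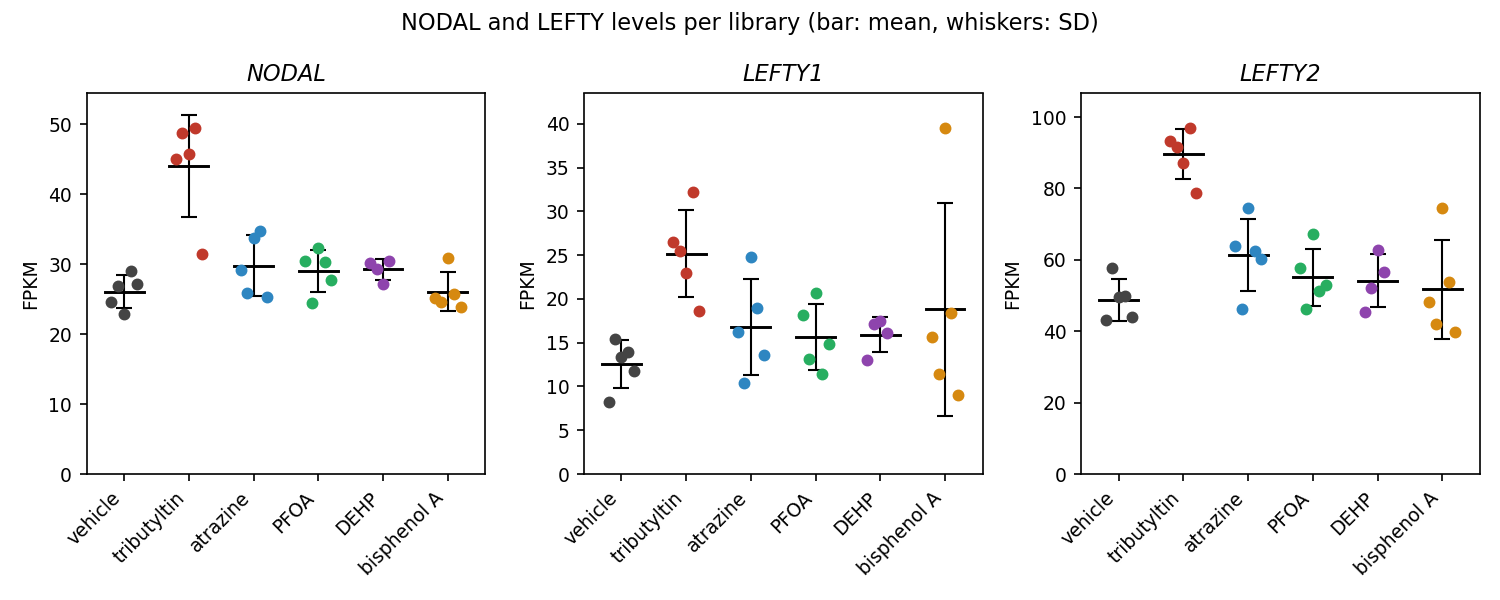
Levels of NODAL, LEFTY1 and LEFTY2 in FPKM (vertical axis, from 0) in every library, by group; points are libraries and bars mark the group mean with the SD. All 5 tributyltin libraries lie above all 5 vehicle libraries for each of the 3 genes, and bisphenol A replicate 3 is the high point of its group, at 39.5 FPKM for LEFTY1 and 74.7 FPKM for LEFTY2.

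Across all genes, 1.25% were called in tributyltin against vehicle, 138 of 11080, with 22 higher and 116 lower. Of the 9 pathway genes 2 were called, both higher, and 3 had an unadjusted p under 0.05, beside 1164 of all genes. The median log2 difference of the 9 genes was -0.037, beside -0.016 for all genes tested, and 3 of the 9 values were positive. Blocking by replicate number in the fit of all groups raised the calls to 420 genes, and to 3 pathway genes, with LEFTY1 added.

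The ratio of LEFTY2 to NODAL within a library was 1.88 ± 0.257 with vehicle and 2.07 ± 0.256 with tributyltin (SD, n = 5 each), and the ranges overlapped, at 1.62 to 2.169 with vehicle and 1.884 to 2.505 with tributyltin. LEFTY2 was 4.00 ± 0.709 times LEFTY1 with vehicle and 3.63 ± 0.448 times LEFTY1 with tributyltin. The ratio of the co-receptor to the ligand differed more, but NODAL is its denominator, so it is not separate from the NODAL difference above. TDGF1 was 21.6 ± 2.00 times NODAL with vehicle (range 19.2 to 23.5) and 12.0 ± 3.27 times NODAL with tributyltin (range 9.62 to 17.7), with no overlap. With DEHP it was 17.3 ± 1.21 times NODAL (SD, n = 4, range 16.15 to 18.84), also with no overlap with vehicle but overlapping tributyltin. The mean ratio was 17.25 with atrazine, 17.73 with PFOA and 19.37 with bisphenol A, each with a range that overlapped vehicle. These ratios are given as a description, without a test, and the share of other gene ratios without overlap is not given.

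TDGF1 (6997), the co-receptor, was measured in vehicle at 491.5, 514.5, 538, 630 and 637 FPKM. With tributyltin it was 461, 572, 494, 475 and 557 FPKM, a mean of 512 ± 49.9 (SD, n = 5). The 2 groups overlapped, and the log2 difference was -0.13 (limma adjusted p = 0.664). The means of the other 4 compounds lay between 502 FPKM with bisphenol A and 510 with PFOA, and every compound's mean was below the vehicle mean by less than the SD of the vehicle libraries. Vehicle replicates 4 and 5 were the highest 2 of the 29 libraries.

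GDF3 (9573), a ligand of the same family that can also use the co-receptor, was measured in vehicle at 0.788, 2.15, 1.54, 2.24 and 2.08 FPKM. With tributyltin it was 1.63, 1.12, 1.22, 0.993 and 1.04 FPKM. The tributyltin libraries all lay within the wide vehicle range. The log2 difference was -0.30, with a 95% confidence interval of -0.66 to 0.05 (limma adjusted p = 0.589). At this level the added 1 FPKM shrinks a difference.

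ACVR1B (91), the type I receptor of NODAL and activin, had similar levels in all groups, from a mean of 21.2 ± 1.96 FPKM with tributyltin (SD, n = 5) to 23.9 ± 3.16 with bisphenol A. The log2 difference of tributyltin from vehicle was -0.04, with a 95% confidence interval of -0.25 to 0.18. The whole interval lay below the NODAL difference of 0.72.

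SMAD2 (4087), which carries the signal to the nucleus, was at 24.0 ± 4.45 FPKM with tributyltin and 26.9 ± 3.80 with vehicle (SD, n = 5 each), a log2 difference of -0.16 (limma adjusted p = 0.699). FOXH1 (8928), the DNA-binding partner of SMAD2, was at 19.2 ± 5.61 FPKM with tributyltin and 19.5 ± 5.51 with vehicle. Its log2 difference was -0.02, with a 95% confidence interval of -0.48 to 0.43. SMAD7 (4092), an inhibitory SMAD that is itself induced by the signal, was at 24.4 ± 2.92 FPKM with tributyltin and 27.6 ± 4.09 with vehicle, a log2 difference of -0.17 (limma adjusted p = 0.598). For each of these 3 genes the groups overlapped, and their transcripts say nothing of phosphorylation or location.

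**Figure D2:**
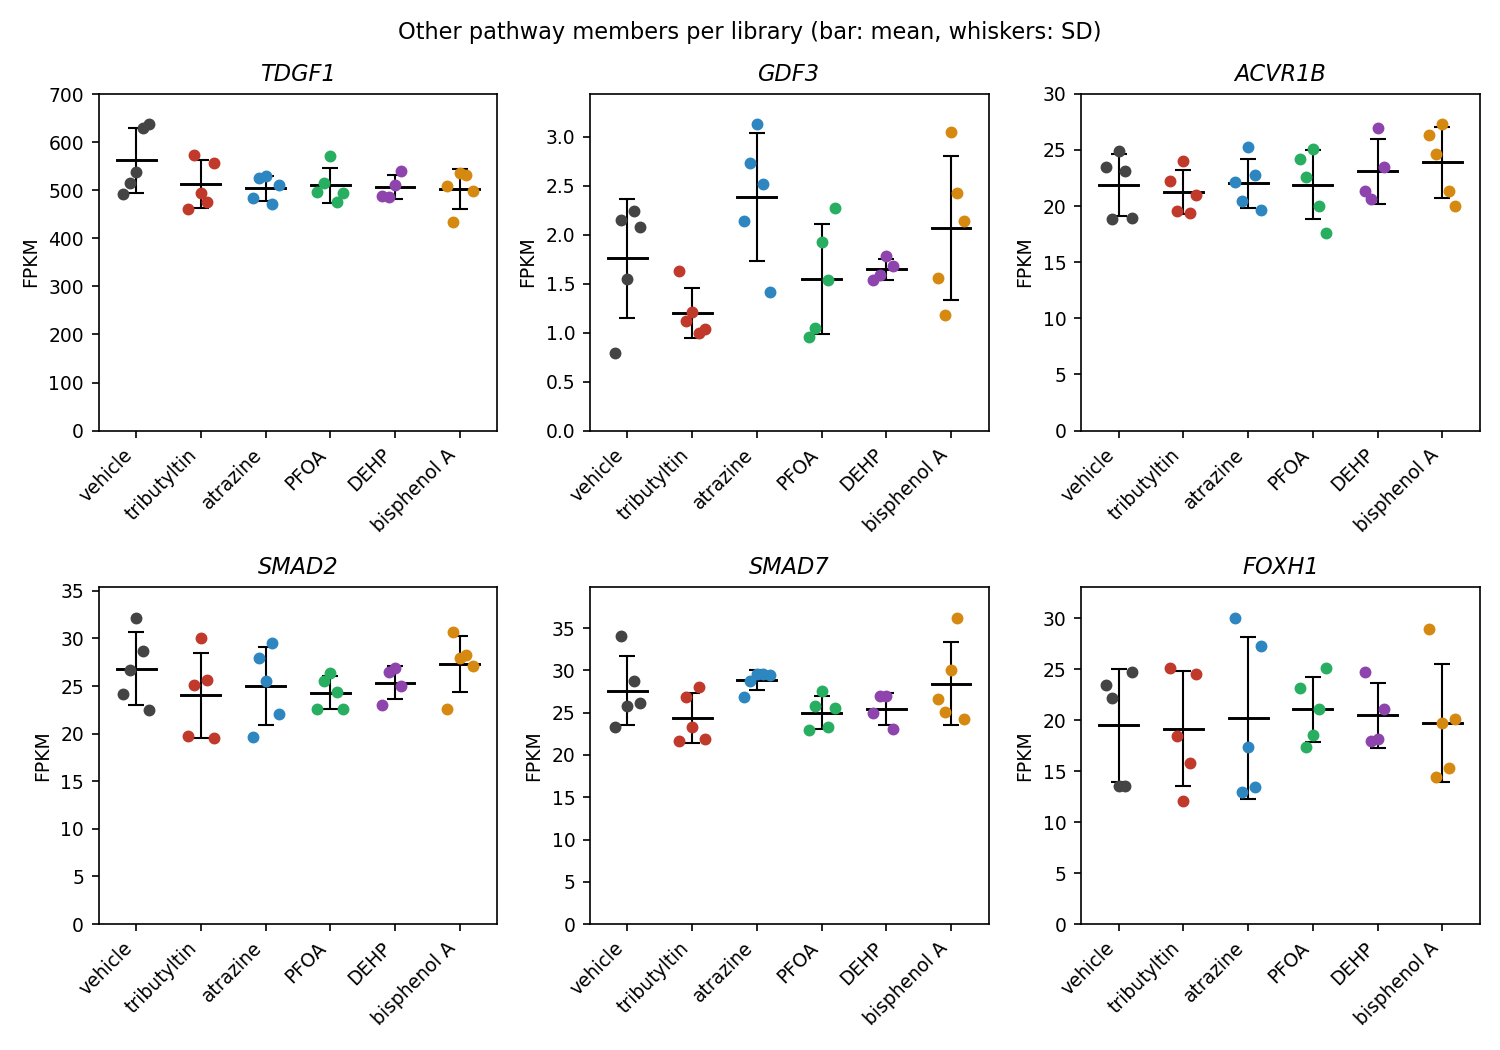
Levels of TDGF1, GDF3, FOXH1, SMAD2, SMAD7 and ACVR1B in FPKM (vertical axes, from 0, a scale for each gene) in every library, by group; points are libraries and bars mark the group mean with the SD. Tributyltin and vehicle overlap for all 6 genes, with TDGF1 at 512 against 562 FPKM and GDF3 at 1.20 against 1.76 FPKM.

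None of the 9 pathway genes was called in the comparisons of the other 4 compounds with vehicle, which share the vehicle libraries with each other and with the tributyltin comparison. The share of all genes called by limma was 0.19% for atrazine (21 genes), 0.162% for PFOA (18 genes), 0.00903% for DEHP (1 gene) and 0% for bisphenol A (0 genes). At an unadjusted p under 0.05 the pathway genes counted 1 for atrazine, 0 for PFOA, 0 for DEHP and 0 for bisphenol A, beside 762, 641, 879 and 573 of all genes. With so few calls among all genes, the absence of calls among 9 is close to the background.

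Among these 4 compounds the LEFTY2 difference was largest with atrazine. Its libraries were at 63.8, 46.2, 74.5, 62.4 and 60.1 FPKM, and 4 of 5 lay above every vehicle library. Its log2 difference from vehicle was 0.32 (95% confidence interval 0.04 to 0.59, unadjusted p = 0.0275, limma adjusted p = 0.648). NODAL with atrazine was at 29.2, 25.9, 33.8, 34.8 and 25.3 FPKM, a log2 difference of 0.18 (adjusted p = 0.787). LEFTY1 with atrazine was at 16.3, 10.4, 24.8, 19.0 and 13.6 FPKM, a log2 difference of 0.37 (adjusted p = 0.832). For each of these genes the atrazine libraries overlapped the vehicle libraries.

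With PFOA, NODAL was measured at 30.4, 24.4, 32.3, 30.2 and 27.7 FPKM and LEFTY2 at 57.7, 46.3, 67.2, 51.2 and 52.9 FPKM. The log2 differences from vehicle were 0.15 for NODAL, 0.17 for LEFTY2 and 0.29 for LEFTY1, each with a limma adjusted p = 1. With DEHP, NODAL was measured at 30.2, 29.3, 27.1 and 30.4 FPKM and LEFTY2 at 45.3, 52.0, 62.8 and 56.6 FPKM. Their log2 differences from vehicle were 0.16 and 0.14, with limma adjusted p-values of 0.753 and 0.846. LEFTY1 differed by 0.34 (adjusted p = 0.787) in the DEHP libraries. For each of the 3 genes the libraries of both compounds overlapped the vehicle libraries.

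With bisphenol A the mean of NODAL was closest to that of vehicle. The libraries were at 25.2, 24.6, 30.8, 25.7 and 23.9 FPKM, a mean of 26.0 ± 2.77 (SD, n = 5), and the 95% confidence interval of the log2 difference was -0.22 to 0.22. LEFTY1 varied more in this group than in any other, at 15.7, 11.4, 39.5, 18.3 and 9.05 FPKM. Replicate 3 held the highest bisphenol A level of NODAL, LEFTY1 and LEFTY2 alike, and its LEFTY1 level was the highest of all 29 libraries. Without that library the LEFTY1 difference between tributyltin and bisphenol A was called, as given below.

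**Figure D3:**
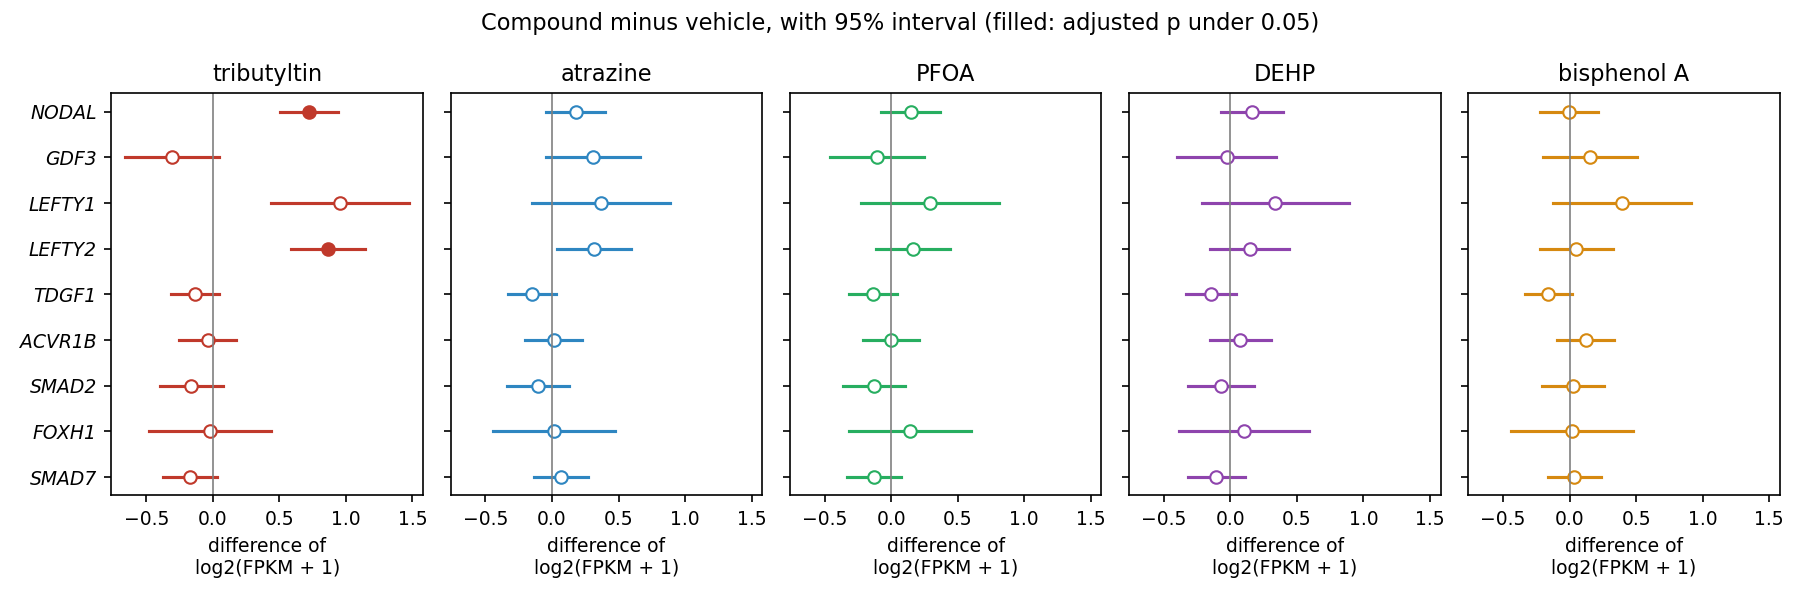
Differences from vehicle on the log2(FPKM + 1) scale (horizontal axis) for the 9 pathway genes and each of the 5 compounds; points are limma estimates, lines their 95% confidence intervals, and filled points passed the threshold. NODAL at 0.72 and LEFTY2 at 0.87 with tributyltin are the 2 filled points.

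Tributyltin was also compared with each of the other 4 compounds, at their own doses, which differ. These 4 comparisons share the tributyltin libraries, and none used the vehicle libraries except through the common estimate of the spread. In each of them NODAL and LEFTY2 were called higher with tributyltin and no pathway gene was called lower, 2 of 9 genes. The share of all genes called was 0.966% against atrazine (107 genes), 0.162% against PFOA (18 genes), 0.478% against DEHP (53 genes) and 2.5% against bisphenol A (277 genes). At an unadjusted p under 0.05 the pathway genes counted 5 against atrazine, 3 against PFOA, 3 against DEHP and 5 against bisphenol A. All genes counted 1036, 706, 1088 and 1767 in the same order.

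For NODAL the log2 difference was 0.54 against atrazine (limma adjusted p = 0.00658), 0.58 against PFOA (adjusted p = 0.0107), 0.56 against DEHP (adjusted p = 0.0146) and 0.73 against bisphenol A (adjusted p = 0.000177). For LEFTY2 it was 0.55 against atrazine (limma adjusted p = 0.039), 0.70 against PFOA (adjusted p = 0.0157), 0.72 against DEHP (adjusted p = 0.0115) and 0.81 against bisphenol A (adjusted p = 0.000782). The lowest tributyltin library for LEFTY2, at 78.9 FPKM, was above the highest library of any other group, bisphenol A replicate 3 at 74.7 FPKM. For NODAL the lowest tributyltin library, at 31.5 FPKM, was below atrazine replicates 3 and 4, at 33.8 and 34.8 FPKM, and below PFOA replicate 3, at 32.3 FPKM. The LEFTY2 call against atrazine was lost in 9 of the 10 fits that left out 1 library, every one except that without atrazine replicate 3, and the calls against PFOA and DEHP were lost without some single libraries.

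None of the 8 pluripotency markers was called by limma with any compound against vehicle (1 with tributyltin and 1 with atrazine had an unadjusted p under 0.05), but DNMT3B, a DNA methyltransferase, was called higher with tributyltin than with atrazine and bisphenol A. It is named here after its values were seen. DNMT3B was at 449, 445, 451, 508 and 485.5 FPKM with tributyltin, all above every atrazine, PFOA, DEHP and bisphenol A library. With vehicle it was at 314, 367, 406, 471 and 416 FPKM, overlapping tributyltin. The log2 difference of DNMT3B was 0.37 against atrazine (limma adjusted p = 0.035), 0.37 against bisphenol A (adjusted p = 0.0218) and 0.25 against vehicle (adjusted p = 0.229, or 0.0427 blocked by replicate number in the fit of all groups). The call against atrazine was lost in 12 of 24 alternatives, among them the fits without each single library except tributyltin replicate 3, and that against bisphenol A in 7 of 23, among them the fits without tributyltin replicate 4 or 5 or bisphenol A replicate 2. The part of this marker's difference in those of NODAL and LEFTY2 was not tested.

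LEFTY1 was not called in these comparisons. Its log2 differences were 0.59 against atrazine (limma adjusted p = 0.441), 0.66 against PFOA (adjusted p = 0.622), 0.62 against DEHP (adjusted p = 0.441) and 0.56 against bisphenol A (adjusted p = 0.266). Without bisphenol A replicate 3 the last of these was 0.86, with an adjusted p = 0.0254. In a fit of tributyltin and DEHP only, blocked by replicate number, the difference was 0.72, with an adjusted p = 0.0344. GDF3 was lower with tributyltin than with atrazine by a log2 difference of -0.61 (95% confidence interval -0.96 to -0.26), which was not called (limma adjusted p = 0.106), and 4 of 5 tributyltin libraries lay below all atrazine libraries. In a fit of these 2 groups only, blocked by replicate number, its adjusted p was 0.0392. Against bisphenol A the GDF3 difference was -0.46 (limma adjusted p = 0.168). SMAD7 differed by -0.24 against atrazine (limma adjusted p = 0.399) and by -0.21 against bisphenol A (adjusted p = 0.297), and was not called. The block in the fit of all groups raised the calls among all genes to 224 against atrazine and 125 against DEHP.

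Other genes of the pathway were followed in 6 lists, and no gene of any list was called by limma with any compound against vehicle. Ligands and processing enzymes had 4 of 6 genes in the table, all past the filter. The 2 with the smallest p in tributyltin against vehicle were INHBA, a subunit of activin A, at 1.14 ± 0.274 against 1.48 ± 0.465 FPKM (SD, n = 5 each; log2 difference -0.20, limma adjusted p = 0.792), and FURIN, a convertase that processes TGF-beta family precursors (0.04, adjusted p = 0.961). The median difference of the 4 genes was -0.021, beside -0.016 for all genes.

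Of 9 other antagonists 6 passed the filter, with a median log2 difference of 0.16 and 5 positive values in tributyltin against vehicle. The median of all genes was -0.016. For the other compounds against vehicle the list median was 0.16 with atrazine (6 positive values), 0.22 with DEHP (4), 0.092 with bisphenol A (4) and 0.04 with PFOA (4). CER1, a secreted antagonist of NODAL and BMP ligands, was at 4.63, 1.55, 5.04, 1.01 and 2.85 FPKM with tributyltin. With vehicle it was at 0.643, 1.24, 1.00, 1.70 and 1.30 FPKM. Tributyltin replicates 1, 3 and 5 lay above all vehicle libraries and replicates 2 and 4 lay within their range. With atrazine CER1 was at 1.64, 1.92, 1.71, 1.96 and 3.40 FPKM, and all but replicate 1 lay above all vehicle libraries. The mean of CER1 was 2.33 FPKM with PFOA, 1.65 with DEHP and 1.1 with bisphenol A. Between tributyltin and vehicle CER1 differed by 0.78 on the log2 scale (SE 0.289) and was not called (limma adjusted p = 0.269). TMEFF1, a membrane protein known to bind TDGF1, was at 4.85 ± 1.46 against 3.30 ± 1.42 FPKM (SD, n = 5 each; adjusted p = 0.499).

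Among 5 other receptors and co-receptors 4 were in the table and 2 passed the filter. TGFBR1, the type I receptor of TGF-beta, had a mean of 22.9 FPKM over all libraries and TGFBR2, the type II receptor, 2.62 FPKM. Their log2 differences with tributyltin were -0.15 (limma adjusted p = 0.8) and -0.20 (adjusted p = 0.567). ACVR1C, an alternative type I receptor for NODAL, was near 0 with a mean of 0.0177 FPKM, and CFC1, the other member of the TDGF1 family, had a mean of 0.395 FPKM.

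Of 15 other SMADs and SMAD regulators 14 passed the filter, with 5 positive values and a median log2 difference of -0.041 with tributyltin. NEDD4L, a ubiquitin ligase that targets activated SMAD2 and SMAD3, was at 18.05, 15.24, 17.11, 16.79 and 16.39 FPKM with tributyltin. With vehicle it was at 20.08, 19.95, 20.9, 20.54 and 17.97 FPKM. Only the highest tributyltin library and the lowest vehicle library overlapped. The log2 difference was -0.24 (SE 0.0634) and was not called (limma adjusted p = 0.0566); blocked by replicate number in the fit of all groups, its adjusted p was 0.00831. With PFOA NEDD4L was at 17.0 ± 1.20 FPKM and with atrazine at 17.5 ± 0.816 (SD, n = 5 each), and both groups overlapped tributyltin. With DEHP it was at 19.1 ± 1.38 FPKM (SD, n = 4). Against bisphenol A, at 20.9 ± 0.911 FPKM (SD, n = 5), NEDD4L was called lower with tributyltin, by -0.31 (adjusted p = 0.00705), with no overlap. That call was lost on these 2 groups alone, without or with the block (adjusted p = 0.148 and 0.168), and without the libraries numbered 1 and 5 (adjusted p = 0.0569).

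Among genes that NODAL signalling is known to induce in forming mesoderm and endoderm, EOMES, a T-box transcription factor, was at 3.44, 2.82, 3.93, 2.12 and 4.08 FPKM with tributyltin. With atrazine it was at 7.87, 8.66, 5.64, 5.17 and 5.41 FPKM. All tributyltin libraries lay below all atrazine libraries, and the log2 difference was -0.82 (SE 0.177, limma adjusted p = 0.0154). Vehicle lay between them at 4.46 ± 1.74 FPKM (SD, n = 5), overlapping both, and EOMES differed by -0.31 between tributyltin and vehicle (limma adjusted p = 0.592). Atrazine had the highest mean of all groups, at 6.55 FPKM, beside 4.7 with PFOA, 4.3 with DEHP and 3.9 with bisphenol A. The call against atrazine was lost in 6 of 23 alternatives, among them those without tributyltin replicate 2 or 4 or atrazine replicate 1 or 2.

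The BMP arm, which signals through other SMADs and opposes NODAL in several settings, had 14 of 14 genes in the table and 11 past the filter. Its median log2 difference with tributyltin was -0.018. BMP4, a ligand of this arm, was at 45.7, 26.2, 38.7, 36.9 and 38.6 FPKM with tributyltin. With vehicle it was at 29.01, 19.89, 30.03, 25.54 and 23.65 FPKM. Tributyltin replicate 2 was within the vehicle range and the other 4 libraries were above it. The log2 difference was 0.52 (SE 0.143) and was not called (limma adjusted p = 0.0714), but blocked by replicate number its adjusted p was 0.00722 in the fit of all groups and 0.00257 in the fit of the 2 groups only; without tributyltin replicate 2 the adjusted p was 0.0185. With bisphenol A BMP4 was at 33.7 ± 4.97 FPKM (SD, n = 5), overlapping both tributyltin and vehicle, and it was not called between the 2 compounds. Its mean was 28.1 FPKM with DEHP and 26.9 with PFOA. Against atrazine, at 23.3 ± 3.82 FPKM (SD, n = 5), BMP4 was called higher with tributyltin, by 0.65 (limma adjusted p = 0.0179). That call was lost in 6 of 24 alternatives, among them those without tributyltin replicate 1 or 5 or atrazine replicate 2 or 4.

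Levels also differed between replicate numbers. A limma F test over the 5 numbers, with the group in the model, was added after the values had been seen, and it called 45.3% of all genes, 5015 of 11080. It called 5 of the 9 pathway genes, a share near that background. FOXH1 (adjusted p = 0.000247), SMAD2 (adjusted p = 0.000215) and ACVR1B (adjusted p = 0.000525) had the smallest p-values, followed by LEFTY2 (adjusted p = 0.0264) and LEFTY1 (adjusted p = 0.048). NODAL, TDGF1, GDF3 and SMAD7 were not called, with an adjusted p = 0.0888 for NODAL.

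FOXH1 had means of 25.9, 17.2, 16.6, 16.7 and 24.4 FPKM over the libraries numbered 1 to 5. SMAD2 had means of 21.96, 27.09, 28.19, 26.93 and 22.76 FPKM in the same order. The pair thus moved in opposite directions: in 6 of 6 groups the libraries numbered 1 and 5 lay above those numbered 2 to 4 for FOXH1, and in 6 of 6 groups they lay below them for SMAD2. In vehicle, for example, FOXH1 was at 23.5, 22.2, 13.5, 13.6 and 24.7 FPKM and SMAD2 at 24.2, 26.7, 32.2, 28.7 and 22.5 FPKM. This split of the numbers was chosen after the values had been seen, and DEHP has number 1 but not number 5. ACVR1B followed another order, with means of 23.3, 21.1, 25.6, 21.7 and 19.4 FPKM.

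The labels do not say what a replicate number stands for. Median relative depth was 66.5% of the deepest library for number 1, 85.3% for number 2, 74.6% for number 3, 73.2% for number 4 and 42.9% for number 5. The summed fibroblast markers had medians of 121, 102, 114, 112 and 101 FPKM over the same numbers, and the summed pluripotency markers 1975, 1984, 2134, 2159 and 1921 FPKM. The part of depth or of feeder RNA in the differences between numbers was not tested.

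**Figure D4:**
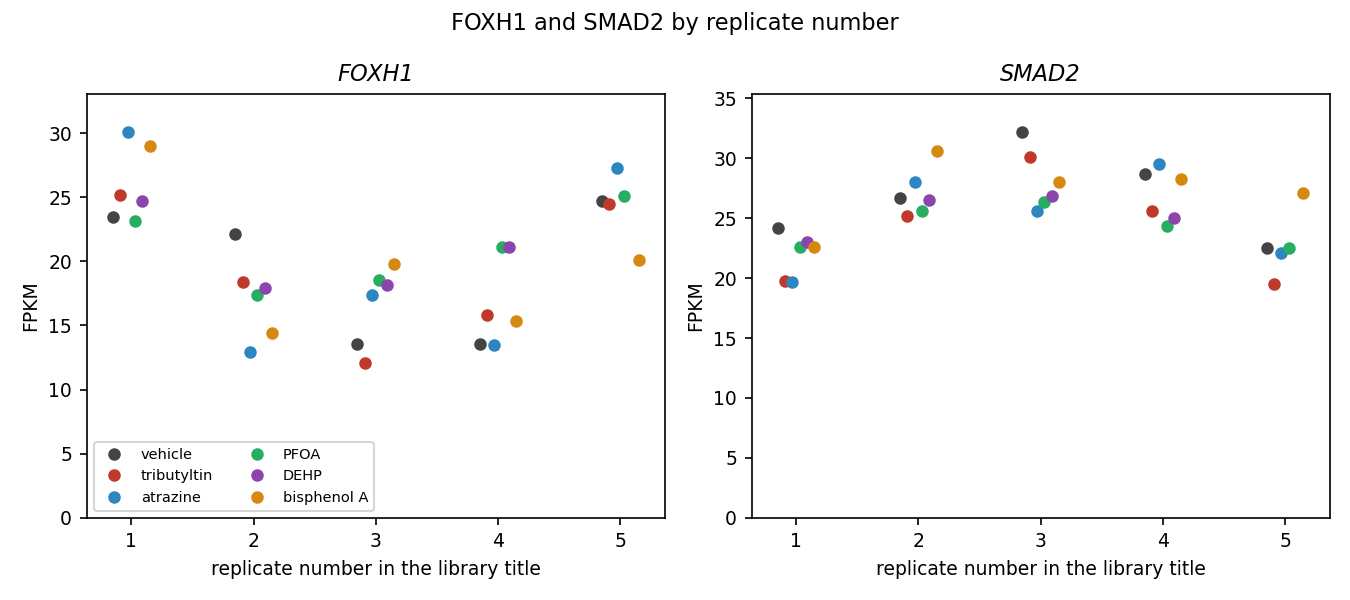
Levels of FOXH1 and SMAD2 in FPKM (vertical axes, from 0) against the replicate number in the library title (horizontal axis, 1 to 5), with 1 point per library, coloured by group. FOXH1 is high at numbers 1 and 5, with means of 25.9 and 24.4 FPKM, where SMAD2 is low, at 21.96 and 22.76 FPKM.

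Some of the genes also varied together within groups. After the group means of log2(FPKM + 1) were subtracted, LEFTY1 and LEFTY2 had Pearson r = 0.927 and Spearman rho = 0.911 over the 29 libraries, and r = 0.888 without the 2 libraries farthest from the median. By that r of 0.927, 0 genes outside the pathway list were closer to LEFTY1 than LEFTY2 was. After the means of the replicate numbers were also removed r was 0.890, and closer genes were not counted again. The libraries share plates and numbers, and the 2 genes may share reads, so these values are a description. NODAL had r = 0.646 with LEFTY1 and 0.584 with LEFTY2, and 6 and 22 genes outside the list were closer to NODAL than these were. FOXH1 and SMAD2 had r = -0.949 (rho = -0.961), and -0.862 after the means of the numbers were removed. TDGF1 had r = 0.056 with NODAL and 0.203 with LEFTY2, both weak.

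**Figure D5:**
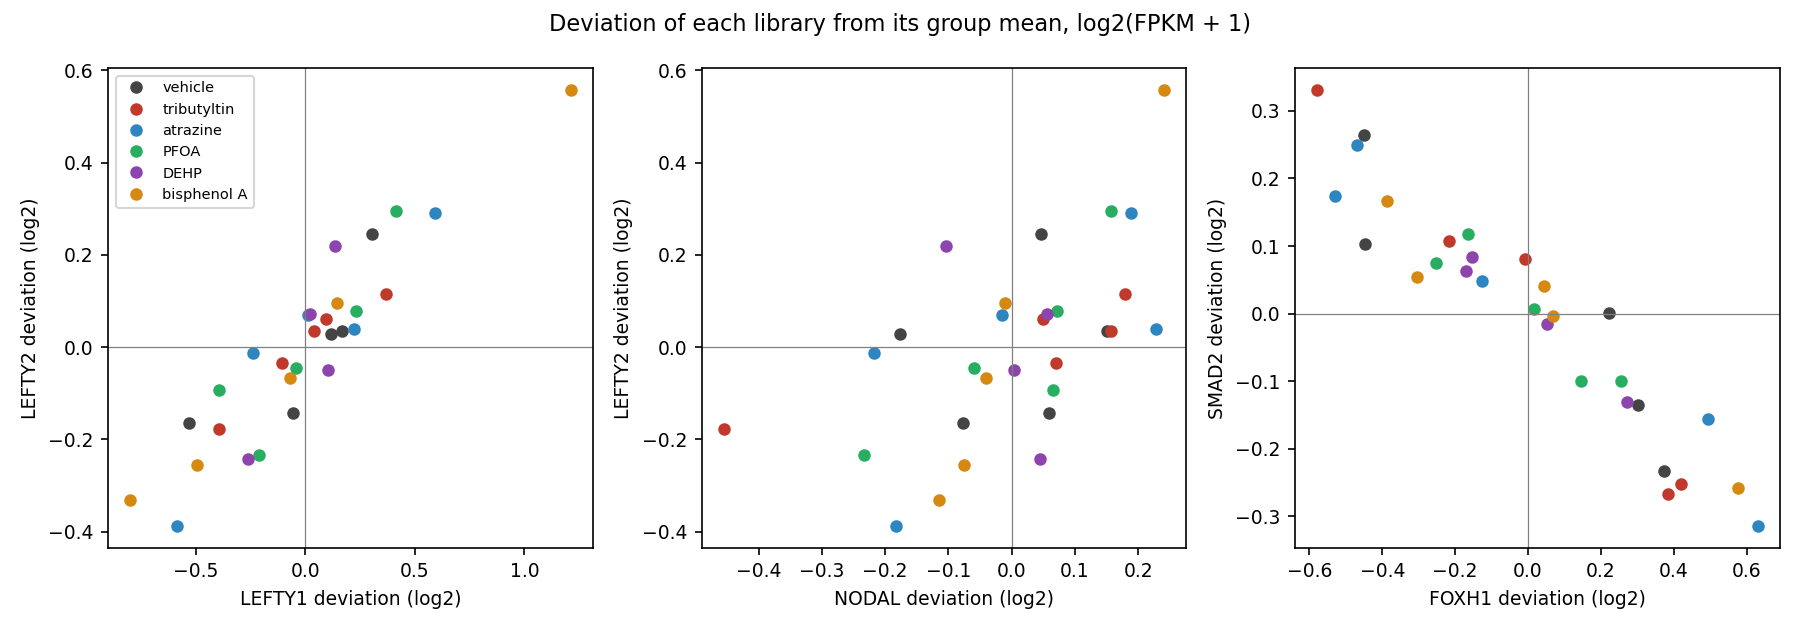
Deviations from the group mean on the log2(FPKM + 1) scale, 1 point per library, coloured by group, for LEFTY2 (vertical) against LEFTY1 (horizontal), LEFTY2 against NODAL, and SMAD2 against FOXH1. The LEFTY pair rises along the diagonal (r = 0.927), NODAL and LEFTY2 do so more loosely (r = 0.584), and FOXH1 and SMAD2 run in opposite directions (r = -0.949).

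By Pearson r over all 29 libraries, the 5 genes outside the list most like NODAL were MLF1IP (r = 0.791), SLC25A20 (0.786), RFK (0.730), PGP (0.725) and TRIM22 (0.711). Those most like LEFTY2 were SLC25A20 (0.770), TRIM5 (0.698), PPCDC (0.688), BCL2L13 (0.682) and ABCA1 (0.676). These values include the difference between tributyltin and the other groups. Within groups, r fell to 0.200 with NODAL and 0.245 with LEFTY2 for SLC25A20, which encodes the mitochondrial carnitine carrier, and to -0.404 with LEFTY2 for ABCA1, a cholesterol exporter. SLC25A20 had means of 2.06 FPKM with vehicle and 4.42 with tributyltin, and ABCA1 14.4 and 53.5 FPKM. MLF1IP kept r = 0.599 with NODAL and BCL2L13 kept r = 0.607 with LEFTY2 within groups.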

How the data were processed

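Gene expression was measured by RNA-seq in 29 libraries; per the labels' protocols, 100 ng of RNA went into Ribo-SPIA amplification, reads were 50 nt and single-end, and all colonies of a well were harvested about 24 h after the last medium change. The deposited values are FPKM, a unit in which the authors corrected each gene for its length and each library for its size. The tools were Cuffdiff 2.2.1, TopHat2 2.1.1 and SAMtools, per the submitters' processing notes, which also name a mouse build, GRCm38.p5, with no role. The rhesus build, and how reads from mouse feeder cells were handled, are not given in the sources used here. Each row has a human gene symbol and a human Entrez identifier. Of the 10 member symbols 9 occur among the rhesus names of Ensembl and 7 in the RefSeq gene table. LEFTY1 is in neither, and LEFTY2 and TDGF1 are missing from the RefSeq table. No coordinates or sequences were used.

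Values were tested as log2(FPKM + 1) with limma 3.58.1 in R 4.3.3 (moderated two-sided test with a mean-variance trend, all 6 groups in 1 fit), over the 11080 of 16048 genes whose mean reached 1 FPKM. Benjamini-Hochberg adjustment was over all genes tested in each comparison, with a threshold of 0.05. The test was checked on simulated data with independent libraries. Those data held no differences between replicate numbers, unlike the real data, so the check does not cover them. Depth was taken from steps in the values of 1960 low genes, of which 97.3% of 18600 values were whole within 0.1 of a step; it is relative, and absolute depth is unknown.

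Same-numbered libraries deviated together, with every correlation over 0.1, for tributyltin with vehicle (lowest 0.175), atrazine (0.241) and DEHP (0.223), from the data and not from the labels; the block is given beside those results where it changes a call. The pathway genes, the lists and the tests were chosen with earlier results of these data known. Text names every member, every called gene of the 6 lists or else the 2 with the smallest p in tributyltin against vehicle, and the 5 genes most like NODAL and LEFTY2. Alternatives covered 15 kinds of setting; those for the named genes of the 6 lists and for DNMT3B were added after seeing the data. The summary of the list of mesoderm and endoderm targets is not reported here.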

Additional observations from a re-analysis of the deposited data

Results flagged for a closer look

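In 54 groups of libraries, 1 for each gene and group, the highest and the lowest library were compared with the rest. By Dixon's criterion 2 stood apart. Chance alone gives about 1 in 20, so 2 in 54 is no more than chance gives. The NODAL level of tributyltin replicate 5, 31.5 FPKM, was far below the other 4 libraries, at 45.1 to 49.4 FPKM, with a gap of 0.757 of the group's range. The difference from vehicle was called with and without that library. The NODAL level of bisphenol A replicate 3, 30.8 FPKM, was far above the other 4, at 23.9 to 25.7 FPKM, with a gap of 0.730 of the range. The same library had the highest LEFTY1 (39.5 FPKM) and LEFTY2 (74.7 FPKM) of its group.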

How the results depend on the processing

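All values here are log2 differences with limma adjusted p-values, or numbers of pathway genes called. NODAL against vehicle with tributyltin stayed called in 24 of 24 alternatives, between 0.68 and 0.85 (adjusted p 2.41e-06 to 0.0159). LEFTY2 stayed called in all but 1 of 24, between 0.80 and 0.93; without the libraries numbered 1 and 5 it was 0.80 (adjusted p = 0.0522) and 1 gene was called. LEFTY1 against vehicle was called in 6 of 24, from 0.82 to 1.05 (adjusted p 0.00177 to 0.337). With vehicle as reference, 0 pathway genes were called for the other 4 compounds in every alternative.

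Comparisons of tributyltin with other compounds were less stable. Without the libraries numbered 1 and 5, 0 genes were called against atrazine (NODAL 0.60, adjusted p = 0.0551; LEFTY2 0.61, 0.333) and 1 gene each against PFOA (LEFTY2 0.75, 0.329), DEHP (LEFTY2 0.68, 0.142) and bisphenol A (LEFTY2 0.72, 0.0792). On the 2 groups alone, 0 genes were called against atrazine (NODAL 0.54, 0.138; LEFTY2 0.55, 0.076) and 1 gene each against PFOA (NODAL 0.58, 0.155) and DEHP (NODAL 0.56, 0.121). Against atrazine, 1 gene was called with no filter (LEFTY2 0.55, 0.0604) and with quantile normalization (LEFTY2 0.50, 0.073). With the replicate block on 2 groups alone, 1 gene was called against PFOA (NODAL 0.58, 0.0818). Fewer samples entered the fits on subsets; otherwise the cause was not tested.

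Leaving out 1 library at a time gave 1 to 2 genes against atrazine, 0 to 2 against PFOA and 0 to 2 against DEHP. LEFTY2 then lay between 0.45 and 0.62 against atrazine, lost in 9 of 10; between 0.64 and 0.77 against PFOA, lost without tributyltin replicate 4 or PFOA replicate 2, 4 or 5; and between 0.64 and 0.79 against DEHP, lost without DEHP replicate 1 or 2. NODAL lay between 0.52 and 0.69 against PFOA, lost without tributyltin replicate 4 or PFOA replicate 2, and between 0.51 and 0.67 against DEHP, lost without tributyltin replicate 2 or 4 or DEHP replicate 2 or 3. GDF3 against atrazine was called with library weights (-0.72, 0.00614) and without atrazine replicate 5 (-0.73, 0.039).

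Of 71 differences that were not called, 26 changed sign under some alternative, 100 of 1663 values; of the 10 called, 0 did. The count of all genes called in tributyltin against vehicle ran from 44 on the 2 groups alone to 420 with the replicate block over all groups, beside 138. The replicate block changed no other call of a pathway gene beyond those printed. In the other 6 comparisons not every same-numbered pair correlated above 0.1, with values as low as -0.255 for bisphenol A and vehicle, although many genes differed by number over all groups. Scaling moved the all-gene median by at most 0.021. GDF3 has no value under the filter of 5 FPKM, and the shallow bisphenol A libraries limit precision for low genes.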
